A study of Mus musculus with 9 samples.

Results

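The 52 genes described here encode proteins that make ribosomes, from RNA polymerase I and its factors to the nucleolar proteins that cut, modify and fold ribosomal RNA. They were chosen by gene symbol from knowledge of the pathway, with earlier results of these data known. All 52 were found among the 48230 genes kept from the deposited table. Expression was measured by poly(A)-selected RNA sequencing of BeCon cells, mouse tumor cells used in a study of ovarian cancer, in 9 libraries. The 4 YKL-05-099 libraries came from tumor cells in the ascites of B6 mice given YKL-05-099, an inhibitor of the salt-inducible kinases. The cultured group is 1 library of BeCon cells kept in vitro, for which the labels name no treatment. The 4 vehicle libraries came from ascites tumor cells of B6 mice given the vehicle. The cells from mice of both treatments had been sorted as viable, CD45-negative and MHC class I-positive, a step the labels do not give for the cultured cells. Whether each mouse library holds 1 animal or several is not in the labels, and the p-values cover only the spread among these libraries, which may in part be technical. The labels give no dose, duration or mouse age. Library names carry a different prefix for each treatment, and whatever that prefix stands for cannot be told apart from treatment.

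Ribosomes are built in the nucleolus. RNA polymerase I copies the ribosomal DNA into a long precursor, small nucleolar RNA-protein particles (snoRNPs) guide its methylation and pseudouridylation, and large assemblies then split it into the small-subunit and large-subunit paths. The pathway is tied to cell growth, and the transcription factor MYC is a known activator of many of its genes through the DNA element CACGTG, called an E-box. Ribosomal RNA itself is not part of poly(A)-selected data, so the values below are messenger RNA levels of the factors and not rates of ribosome production.

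Of the 52 members 46 matched a promoter in the RefSeq table on GRCm38.p6, which spans 250 bases before to 50 bases after the start of transcription. CACGTG, which reads the same on both strands, was found in 12 of the 46 (26.1%), against 11.8% of 8908 genes tested in the mice and 8.09% of 27025 genes of the table. It lay upstream of the start in 3 members (6.52%, against 893 of the 8908 tested genes) and within the first 50 transcribed bases in 9 (19.6%, against 2.38%). These shares are a description of the letters in these windows, without a test, and say nothing of which factor binds there. A second palindrome, TCGCGA, was found in 5 members (10.9%, against 5.99% of the tested genes), namely Mybbp1a, Nop14, Nop58, Polr1c and Tsr1. Of the 12 members with CACGTG 9 were lower in YKL-05-099 cells, beside 26 of all 46 members with a promoter. The other 3 holders, Imp4, Nle1 and Utp20, were not called, among 18 uncalled members with a promoter. Ddx21, Nop58 and Gar1 fell with no CACGTG in their windows, and Rrs1 and Rrp12 fell but matched no promoter. Whether the element bears on the falls was not tested. The windows of the 9 are printed to show where the element sits in genes that fell. Each runs 5′ to 3′ on the strand of the gene with the element in capitals, and positions count from 1 at the first transcribed base.
Nop2, chr6:125131796-125131855, plus strand: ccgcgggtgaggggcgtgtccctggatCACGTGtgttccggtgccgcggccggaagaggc
Rrn3, distal element, chr16:13780457-13780516, plus strand: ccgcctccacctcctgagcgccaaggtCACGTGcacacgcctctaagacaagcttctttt
Rrn3, proximal element, chr16:13780624-13780683, plus strand: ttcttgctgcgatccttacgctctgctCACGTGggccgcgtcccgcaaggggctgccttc
Wdr43, chr17:71616220-71616249, plus strand: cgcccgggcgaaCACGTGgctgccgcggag
Mybbp1a, chr11:72441347-72441376, plus strand: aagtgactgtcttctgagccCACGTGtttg
Ltv1, chr10:13193092-13193121, minus strand: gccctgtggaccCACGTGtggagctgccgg
Grwd1, chr7:45830740-45830769, minus strand: aagggccggagtcgCACGTGtgaaaccgga
Tsr1, chr11:74898092-74898121, plus strand: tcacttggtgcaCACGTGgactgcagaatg
Pno1, chr11:17211540-17211569, minus strand: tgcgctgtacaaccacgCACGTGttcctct
Pes1, chr11:3963965-3963994, plus strand: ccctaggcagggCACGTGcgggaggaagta

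In the 3 windows of Nop2 and Rrn3 the element lies upstream, beginning at -60 in Nop2 and at -215 and -48 in Rrn3. In the other 7 genes it begins between position 3 (Pes1) and position 41 (Mybbp1a), past the annotated start. The first transcribed base was that of the RefSeq annotation, and other start sites in these cells were not measured.

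**Figure D1:**
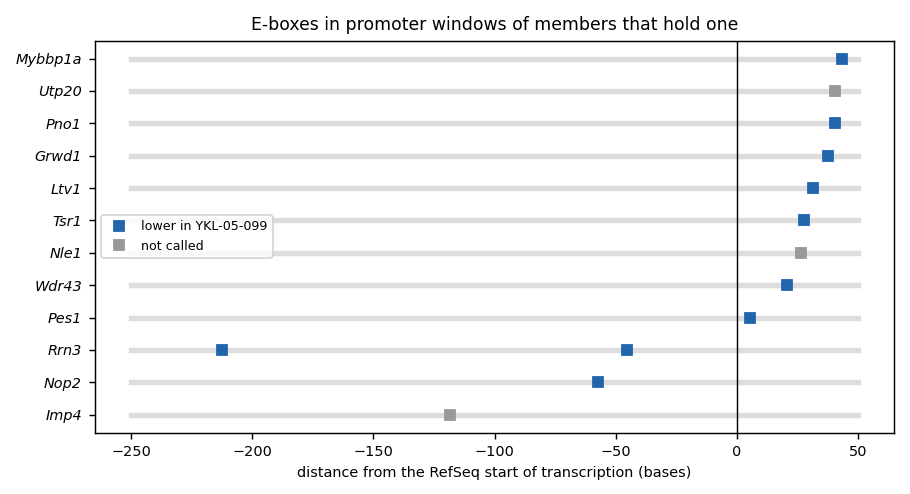
Position of each CACGTG element (square, plotted at its centre) in the 12 members that hold one, in bases from the RefSeq start of transcription (vertical line), with the searched window, from 250 bases before the start to 50 after it, in light gray. Blue marks members lower in YKL-05-099 cells and gray those not called, and 9 of the 12 have the element just past the start.

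Tumor cells of YKL-05-099-treated mice were first set against those of vehicle-treated mice. The members that changed were mostly lower in YKL-05-099 cells, by small amounts, and a few were higher. By limma on log2(FPKM + 1), with p adjusted over all 11788 genes tested and called under 0.05, 29 of the 52 members fell, 3 rose and 20 were not called. FPKM corrects the number of sequenced fragments for transcript length and library size, so levels can be compared between genes. Over all genes tested 15.1% fell and 28.0% rose, which places the share of members that fell (55.8%) above the background and that of members that rose (5.77%) below it. These shares were not tested, since the list was chosen with earlier results of these data known. Another scaling changes the background split, since median-of-ratios scaling gave 2332 lower and 2573 higher genes in place of 1785 and 3304. Under the same scaling 36 members were lower and 2 were higher.

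The median log2 fold change of the 52 members was -0.17 (YKL-05-099 minus vehicle), beside 0.05 over all genes tested, and 44 of the 52 had a negative value. Only 3 members fell by at least 0.5 log2 units, namely Rrp12, Ddx21 and Rrs1. Of the 29 that fell, 21 fell by under 0.3. All 4 YKL-05-099 values lay below all 4 vehicle values for 28 members, against 13.5% of genes tested, and above them for 2 members, against 26.5%. In bulk libraries fewer cells that express a gene and less of its RNA per cell cannot be told apart.

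Summed over the 52 genes, the level was 1558, 1570, 1625 and 1611 FPKM in YKL-05-099 cells, 1934 FPKM in culture, and 1755, 1813, 1794 and 1753 FPKM in vehicle cells. The mouse groups did not overlap, and the cultured library stood above both. Npm1 and Ncl alone made up 29.5 to 33.0% of this sum in the mouse libraries and 39.1% in culture. Without them the sum was 1057 to 1112 FPKM in YKL-05-099 cells, 1179 FPKM in culture and 1208 to 1236 FPKM in vehicle cells, so the culture value then lay between those of the mouse groups.

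**Figure D2:**
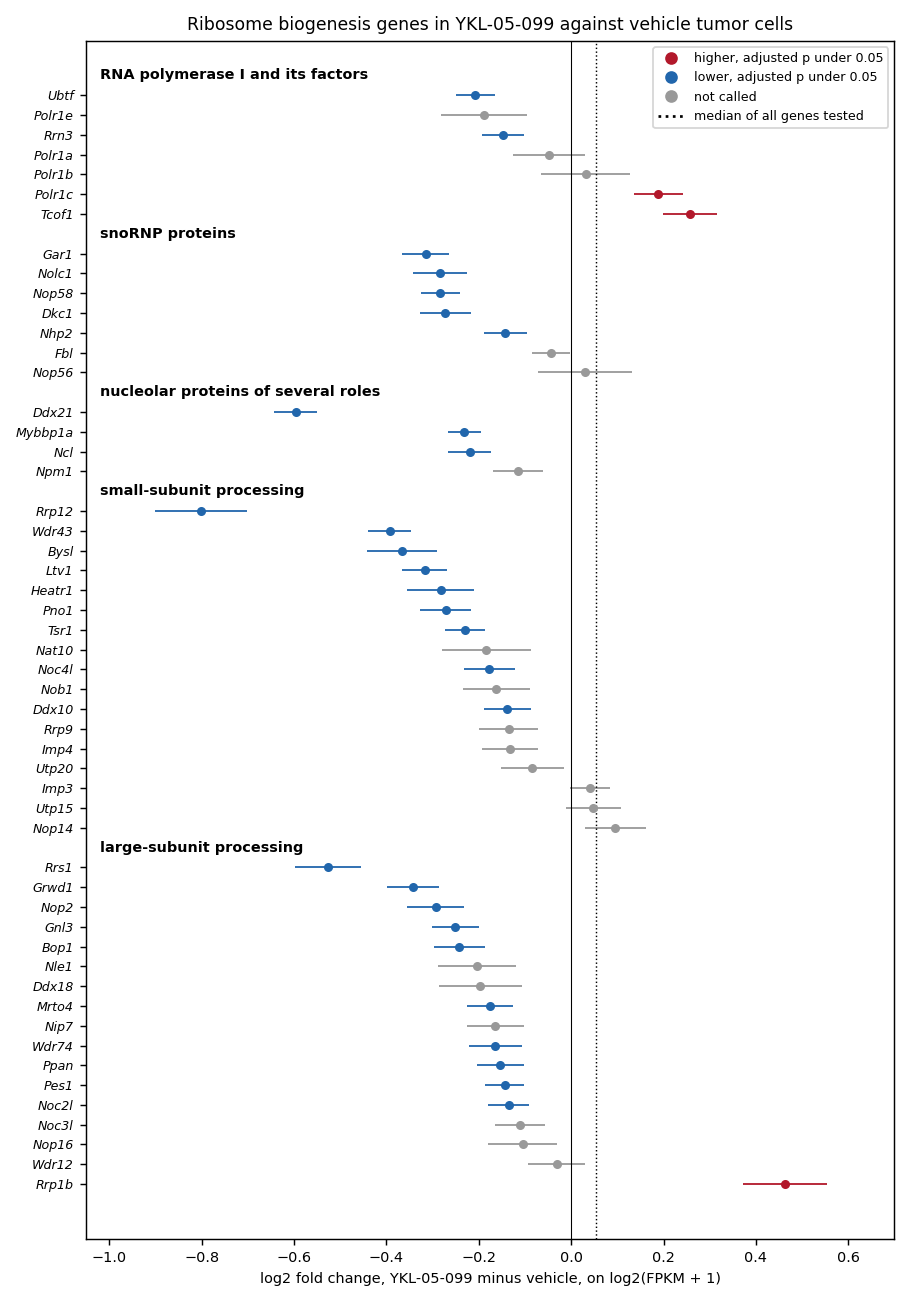
Log2 fold change (YKL-05-099 minus vehicle, on log2(FPKM + 1)) of the 52 members with its standard error, grouped by role, from limma on 4 libraries per group. Red points rose, blue points fell and gray points were not called, and 44 of the 52 points lie left of 0, while the dotted line marks the median of all genes tested at 0.05.

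Summed markers of leukocytes, macrophages, red cells and plasma cells were lower in the YKL-05-099 libraries too, though some of these genes were also expressed in cultured BeCon cells. The summed level of the 10 leukocyte markers was 10.1 to 26.6 FPKM in YKL-05-099 cells, 11.7 FPKM in culture and 38.8 to 77.6 FPKM in vehicle cells. Of these markers 2 of 10 reached an FPKM of 1 in all 4 YKL-05-099 libraries, 2 in culture and 7 in all 4 vehicle libraries. The 2 in culture were Cytip (5.67 FPKM) and Ptpn6 (4.23 FPKM), which made up most of the sum there. The same 2 genes were those that reached it in all YKL-05-099 libraries. Ptprc, Laptm5, Cd53 and Tyrobp were listed at 0 in culture. The 10 macrophage markers summed to 29.1 to 97.2 FPKM in YKL-05-099 cells, 12.0 FPKM in culture and 227 to 525 FPKM in vehicle cells. The 4 hemoglobin genes summed to 0.946 to 91.2 FPKM in YKL-05-099 cells, were listed at 0 in culture, and summed to 240.0 to 1459 FPKM in vehicle cells. The 3 plasma cell markers summed to at most 0.513 FPKM in YKL-05-099 cells and 0.013 FPKM in culture, against 15.1 to 61.1 FPKM in vehicle cells. The 5 fibroblast markers summed to 475 to 544 FPKM in YKL-05-099 cells, 286 FPKM in culture and 532 to 586 FPKM in vehicle cells, most of it Dcn. The sums overlapped between the mouse groups, but Col1a2, Col1a1 and Pdgfra were lower in YKL-05-099 cells without overlap. So was Lum, at no more than 0.279 FPKM in any library. Col1a2 averaged 2.86 FPKM in YKL-05-099 cells and 19.7 FPKM in vehicle cells, Col1a1 averaged 4.23 and 9.52 FPKM, and Pdgfra 5.95 and 12.1 FPKM, in the same order. Cultured BeCon cells held Col1a1 at 32.2 FPKM, Pdgfra at 10.5 FPKM and Dcn at 243 FPKM, but Col1a2 at 0.0668 FPKM and Lum at 0. Whether the lower values reflect fewer fibroblasts was not tested. Which cells made these transcripts in the mice, and their part in the results on the members, was not tested. Of the 9 epithelial and ovarian tumor markers, Wt1, Krt8, Krt18, Krt19 and Msln were at 27.0 FPKM or more in every library, while Cdh1 reached at most 0.0511 FPKM and Epcam at most 0.624 FPKM. Pax8 was listed at 0 in 7 of the 9 libraries. Krt7 was 19.4 to 27.1 FPKM in YKL-05-099 cells, 0.0804 FPKM in culture and 19.6 to 37.8 FPKM in vehicle cells.

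With the mean log2 level of the leukocyte markers as a covariate, the median log2 fold change of the members was -0.19 and 47 of the 52 values were negative. In that fit 5 members passed the threshold, all lower (Ddx21, Wdr43, Nop58, Ubtf and Nolc1), and none of the 3 that had risen did. Calls dropped over all genes tested too, with 321 lower and 581 higher in place of 1785 and 3304. The covariate ran from 0.715 to 1.62 in YKL-05-099 cells and from 1.98 to 2.73 in vehicle cells without overlap, and the median standard error of the members was 0.105 with it and 0.0559 without it. It includes Cytip and Ptpn6, which cultured BeCon cells expressed too, so it does not measure leukocytes alone. Within the YKL-05-099 group, replicates 1 and 4 had the lowest leukocyte sums (13.2 and 10.1 FPKM) and replicates 2 and 3 the highest (26.6 and 26.4 FPKM). The median offset of the 52 members from the vehicle mean was -0.23 and -0.16 log2 units in replicates 1 and 4, and -0.20 and -0.15 in replicates 2 and 3. A relation between these offsets and the leukocyte sums was not tested.

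Calls among RNA polymerase I and its factors went both ways. Of the 7 genes Ubtf and Rrn3 fell (28.6%, against 15.1% of all genes tested). Tcof1 and Polr1c rose (28.6%, against 28.0%), a share near that of all genes. Polr1a, Polr1b and Polr1e were not called, and the median log2 fold change of the 7 was -0.05. Ubtf, which encodes the HMG-box protein that binds the ribosomal DNA (chromosome 11, 102304560 to 102319742), had 36.7, 36.3, 36.1 and 39.6 FPKM in YKL-05-099 cells, 24.3 FPKM in culture, and 42.3, 42.8, 43.8 and 43.4 FPKM in vehicle cells. Every YKL-05-099 library was below every vehicle library, and the cultured one was lower still. Its log2 fold change was -0.21 (SE 0.0420, limma adjusted p = 0.00342). Rrn3, the factor that brings the polymerase to its promoter and the member with a pair of upstream E-boxes, averaged 21.8 ± 0.667 FPKM in YKL-05-099 cells and 24.3 ± 1.02 FPKM in vehicle cells (SD, n = 4 each; limma adjusted p = 0.0266).

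Tcof1, which encodes the nucleolar phosphoprotein treacle (chromosome 18, 60813755 to 60848971), had 7.97, 8.28, 8.04 and 8.18 FPKM in YKL-05-099 cells, 10.3 FPKM in culture, and 6.10, 6.66, 6.52 and 7.28 FPKM in vehicle cells. The mouse groups did not overlap (log2 fold change 0.26, SE 0.0593, limma adjusted p = 0.00662), and the call ended with quantile scaling (log2 fold change 0.16, adjusted p = 0.0617). Polr1c, a subunit shared by RNA polymerases I and III, had 38.9, 41.5, 44.7 and 42.6 FPKM in YKL-05-099 cells, 48.2 FPKM in culture, and 35.9, 36.1, 35.3 and 39.4 FPKM in vehicle cells. Here the groups overlapped by 1 library, since vehicle replicate 4 lay above YKL-05-099 replicate 1. Its call (log2 fold change 0.19, limma adjusted p = 0.0178) ended without YKL-05-099 replicate 3 or without vehicle replicate 3, where adjusted p was at most 0.0515. It ended with median-of-ratios scaling as well (log2 fold change 0.14, adjusted p = 0.0708). The call of Rrn3 ended when YKL-05-099 replicate 2 or 3 or vehicle replicate 1 or 3 was left out, with adjusted p at most 0.0731, and with TPM scaling (adjusted p = 0.0633). Polr1a and Polr1b, the 2 large subunits that form the catalytic centre, averaged 24.3 ± 2.09 and 10.3 ± 1.23 FPKM in YKL-05-099 cells, against 25.2 ± 2.43 and 10.1 ± 1.12 FPKM in vehicle cells.

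Among the 7 snoRNP genes 5 fell (71.4%, against 15.1% of all genes tested) and none rose, with a median log2 fold change of -0.27. Nop58, a core protein of the box C/D particles that guide methylation (chromosome 1, 59684971 to 59719044), had 79.0, 76.1, 81.4 and 81.3 FPKM in YKL-05-099 cells, 94.5 FPKM in culture, and 95.4, 93.8, 95.7 and 102.6 FPKM in vehicle cells. The mouse groups were well apart and culture lay within the vehicle range (log2 fold change -0.28, SE 0.0433, limma adjusted p = 0.000765). Fbl, the methyltransferase of the same particles, averaged 46.7 ± 1.66 FPKM in YKL-05-099 cells and 48.2 ± 1.45 FPKM in vehicle cells, and Nop56 averaged 41.05 ± 5.38 and 40.1 ± 4.58 FPKM, and neither was called.

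The box H/ACA particle, which turns uridine into pseudouridine, has 4 core proteins, of which Gar1, Dkc1 and Nhp2 fell. The other one, Nop10, a gene of the wider list, averaged 52.2 ± 0.924 FPKM in YKL-05-099 cells and 47.2 ± 3.85 FPKM in vehicle cells, with overlapping ranges, and was not called (log2 fold change 0.14, limma adjusted p = 0.0627). Gar1 had 33.2, 37.0, 35.6 and 37.4 FPKM in YKL-05-099 cells, 56.7 FPKM in culture, and 45.9, 43.4, 47.1 and 42.8 FPKM in vehicle cells. No YKL-05-099 value reached the lowest vehicle value, while culture was the highest of all (log2 fold change -0.32, SE 0.0512, limma adjusted p = 0.00105). Dkc1, the pseudouridine synthase, had 12.8, 12.6, 13.4 and 13.4 FPKM in YKL-05-099 cells, 14.9 FPKM in culture, and 17.3, 16.2, 14.9 and 15.4 FPKM in vehicle cells (limma adjusted p = 0.00351). Its groups did not overlap. Nhp2 had 77.3, 79.8, 83.6 and 79.1 FPKM in YKL-05-099 cells, 62.6 FPKM in culture, and 86.1, 92.0, 91.7 and 83.8 FPKM in vehicle cells. The mouse groups came close without overlapping, and its call (log2 fold change -0.14, limma adjusted p = 0.0297) ended in 5 of 8 fits that left out 1 library (YKL-05-099 replicates 1, 2 and 4, vehicle replicates 2 and 3), with adjusted p at most 0.083. Nolc1, a chaperone that binds both kinds of snoRNP, had 15.6, 17.1, 15.8 and 18.2 FPKM in YKL-05-099 cells, 22.1 FPKM in culture, and 20.0, 19.6, 20.7 and 21.7 FPKM in vehicle cells. Its values did not overlap between the mouse groups (log2 fold change -0.28, limma adjusted p = 0.0038).

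The nucleolar proteins with several roles include the most abundant members. Npm1, nucleophosmin, was the highest of the 52 in every library, with 367.9, 359.9, 384.5 and 363.6 FPKM in YKL-05-099 cells, 590.3 FPKM in culture, and 393.2, 431.7, 405.9 and 369.7 FPKM in vehicle cells. The mouse groups overlapped and Npm1 was not called (log2 fold change -0.11, limma adjusted p = 0.114), though it was with median-of-ratios scaling (-0.16, adjusted p = 0.0371). Near-identical copies of Npm1 in the genome can share its reads, so its level is uncertain. Ncl, nucleolin, fell, with 133 ± 2.66 FPKM in YKL-05-099 cells and 155 ± 8.21 FPKM in vehicle cells (SD, n = 4 each; limma adjusted p = 0.00392).

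Ddx21 had the smallest p of all members. It encodes an RNA helicase of the nucleolus (chromosome 10, 62580248 to 62602298), and its level was 12.6, 13.7, 13.5 and 13.7 FPKM in YKL-05-099 cells, 14.1 FPKM in culture, and 20.2, 20.5, 20.6 and 21.6 FPKM in vehicle cells. All 4 YKL-05-099 values and the cultured value were far below the vehicle range (log2 fold change -0.60, SE 0.0466, limma adjusted p = 1.94e-05), and the treated level was 64.5% of the vehicle mean. Mybbp1a, a nucleolar protein first known as a partner of the transcription factor MYB, had 41.9, 42.8, 43.3 and 43.1 FPKM in YKL-05-099 cells, 55.1 FPKM in culture, and 51.4, 49.7, 50.7 and 49.9 FPKM in vehicle cells. The groups did not overlap, the YKL-05-099 values varied little (coefficient of variation 1.43%), and Mybbp1a fell with a log2 fold change of -0.23 (limma adjusted p = 0.000762).

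**Figure D3:**
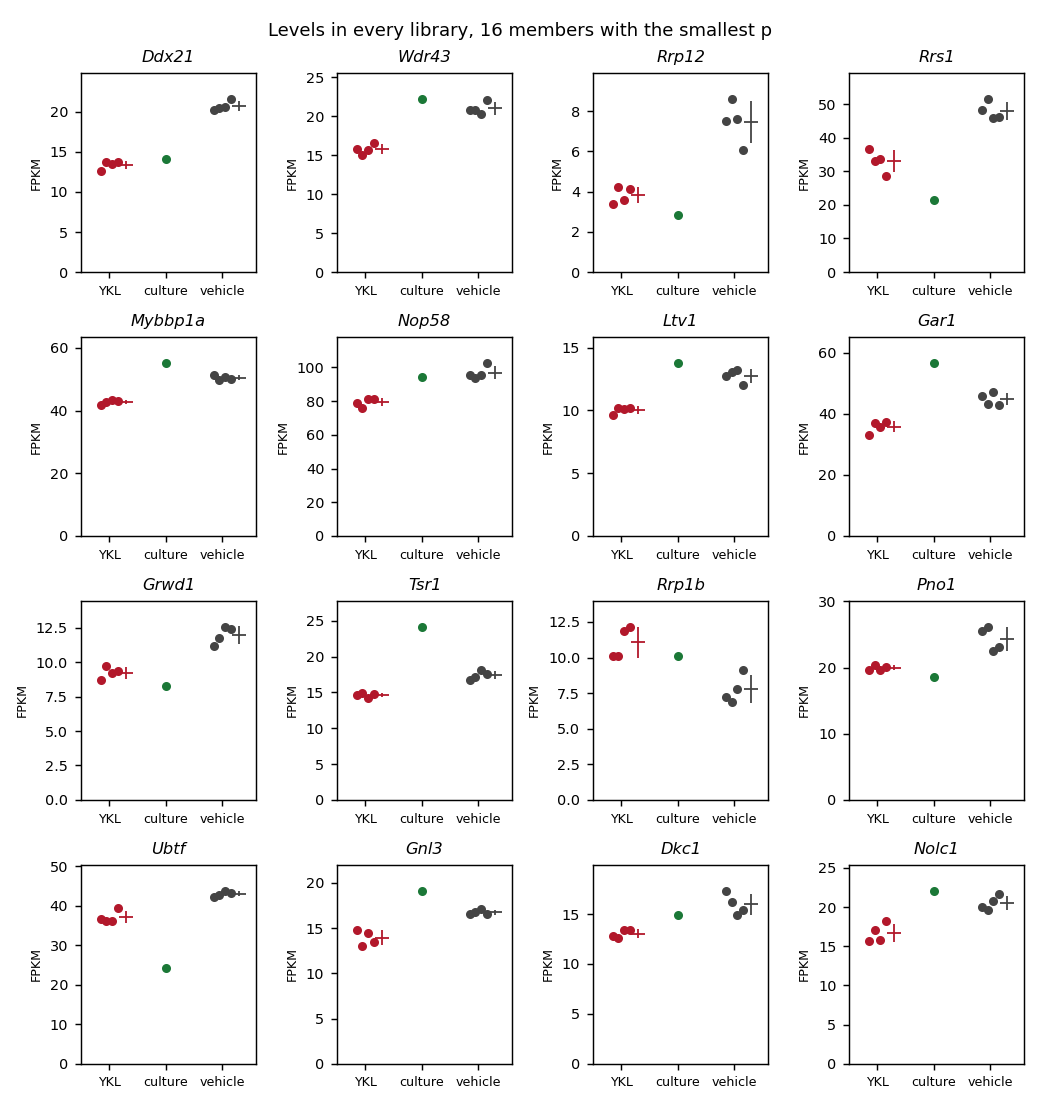
FPKM in every library for the 16 members with the smallest p, with 4 YKL-05-099 libraries (red), the cultured library (green) and 4 vehicle libraries (gray), and bars for the mean ± SD of each mouse group. The axes start at 0, and in 15 panels every red point lies below every gray point, while Rrp1b shows the opposite order.

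Small-subunit factors fell in 9 of 17 cases (52.9%, against 15.1% of all genes tested) and none rose. Rrp12, a late factor that accompanies the small-subunit precursor out of the nucleus (chromosome 19, 41862852 to 41896153), had 3.37, 4.21, 3.60 and 4.13 FPKM in YKL-05-099 cells, 2.86 FPKM in culture, and 7.51, 8.59, 7.60 and 6.08 FPKM in vehicle cells. The YKL-05-099 mean was 51.4% of the vehicle mean, the lowest ratio of the 52, and the groups did not overlap (log2 fold change -0.80, SE 0.0993, limma adjusted p = 0.000232). Wdr43, part of the early assembly that forms on the nascent precursor (chromosome 17, 71616215 to 71659031), had 15.8, 15.01, 15.7 and 16.6 FPKM in YKL-05-099 cells, 22.2 FPKM in culture, and 20.8, 20.9, 20.3 and 22.1 FPKM in vehicle cells. Its E-box begins at position 18, and its level fell by 0.39 log2 units (SE 0.0476, limma adjusted p = 0.000206).

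The small-subunit list holds early and late-acting factors, a division that was not among the planned role groups. Of 6 late factors (Rrp12, Bysl, Pno1, Ltv1, Nob1 and Tsr1) 5 fell (83.3%), with a median of -0.29. Of 11 early factors 4 fell (36.4%), with a median of -0.14, beside 15.1% of all genes tested that fell. The difference between these medians was not tested. Ltv1 had 9.61, 10.2, 10.1 and 10.2 FPKM in YKL-05-099 cells, 13.8 FPKM in culture, and 12.7, 13.1, 13.2 and 12.0 FPKM in vehicle cells. Tsr1, a GTPase-like protein, had 14.7, 14.9, 14.3 and 14.8 FPKM in YKL-05-099 cells, 24.1 FPKM in culture, and 16.8, 17.1, 18.1 and 17.5 FPKM in vehicle cells. Pno1 had 19.6, 20.5, 19.7 and 20.0 FPKM in YKL-05-099 cells, 18.6 FPKM in culture, and 25.6, 26.1, 22.5 and 23.1 FPKM in vehicle cells. None of these 3 overlapped between the mouse groups, with limma adjusted p of 0.000853, 0.00252 and 0.00338, and each carries an E-box past its start. Bysl averaged 5.65 ± 0.375 FPKM in YKL-05-099 cells and 7.58 ± 0.775 FPKM in vehicle cells (limma adjusted p = 0.00399). Nob1, the nuclease that makes the final cut of 18S ribosomal RNA, averaged 13.5 ± 1.39 FPKM in YKL-05-099 cells and 15.2 ± 0.785 FPKM in vehicle cells and was not called.

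Among the early factors Heatr1, a large protein of the assembly that couples transcription to processing, averaged 3.99 ± 0.208 FPKM in YKL-05-099 cells and 5.08 ± 0.483 FPKM in vehicle cells (log2 fold change -0.28, limma adjusted p = 0.011). Noc4l and the helicase gene Ddx10 fell with log2 fold changes of -0.18 and -0.14. Their calls ended without YKL-05-099 replicate 2 or 4 or vehicle replicate 4, for Noc4l also without vehicle replicate 3, and for Ddx10 also without YKL-05-099 replicate 1 or 3 or vehicle replicate 1 or 2, with adjusted p at most 0.075 and 0.12. That of Ddx10 ended also with TPM scaling, the replicate block, no filter on low values, or all 9 libraries in the fit (adjusted p = 0.116, 0.0697, 0.0536 and 0.0501). Imp3, which joins the U3 snoRNP, was the highest small-subunit member and was not called, with 68.5, 66.2, 69.8 and 64.8 FPKM in YKL-05-099 cells, 76.7 FPKM in culture, and 63.2, 69.0, 65.4 and 64.2 FPKM in vehicle cells. These ranges overlapped almost fully. Imp4, Rrp9, Nat10, Utp15, Utp20 and Nop14 were not called either, with log2 fold changes from -0.18 to 0.10. Of these, Imp4 carries an upstream E-box and Utp20 an E-box past its start.

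Large-subunit factors fell in 10 of 17 cases (58.8%, against 15.1% of all genes tested), and 1 rose (5.88%, against 28.0%). Rrs1, a factor that in yeast brings the 5S particle into the large-subunit precursor (chromosome 1, 9545408 to 9547455), had 36.7, 33.1, 33.7 and 28.7 FPKM in YKL-05-099 cells, 21.3 FPKM in culture, and 48.2, 51.5, 45.8 and 46.1 FPKM in vehicle cells. It was the highest of its group in vehicle cells, and its groups did not overlap (log2 fold change -0.53, SE 0.0716, limma adjusted p = 0.000403). Grwd1, a WD-repeat histone-binding protein with an E-box past its start, had 8.69, 9.73, 9.19 and 9.35 FPKM in YKL-05-099 cells, 8.31 FPKM in culture, and 11.2, 11.7, 12.6 and 12.4 FPKM in vehicle cells (limma adjusted p = 0.00111). Gnl3, nucleostemin, had 14.8, 13.1, 14.5 and 13.4 FPKM in YKL-05-099 cells, 19.1 FPKM in culture, and 16.5, 16.8, 17.1 and 16.5 FPKM in vehicle cells (limma adjusted p = 0.00344). Both had YKL-05-099 values below every vehicle value.

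Nop2, a methyltransferase of 28S ribosomal RNA with an upstream E-box, averaged 13.3 ± 0.424 FPKM in YKL-05-099 cells and 16.6 ± 1.36 FPKM in vehicle cells (log2 fold change -0.29, limma adjusted p = 0.00393). The complex of Pes1, Bop1 and Wdr12, which processes the large-subunit precursor, was not uniform. Bop1 averaged 27.1 ± 1.82 FPKM in YKL-05-099 cells and 32.1 ± 1.18 FPKM in vehicle cells (log2 fold change -0.24, limma adjusted p = 0.00625). Pes1 averaged 28.2 ± 0.838 FPKM in YKL-05-099 cells and 31.2 ± 0.99 FPKM in vehicle cells (limma adjusted p = 0.020), a call that ended without YKL-05-099 replicate 1 or 2 or vehicle replicate 2 or 3, with adjusted p at most 0.0592. Wdr12 averaged 9.29 ± 0.309 and 9.54 ± 0.744 FPKM and was not called.

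Mrto4, Noc2l, Ppan and Wdr74 fell by 0.14 to 0.18 log2 units, with adjusted p from 0.0177 to 0.041. The call of Mrto4 ended without YKL-05-099 replicate 2 or vehicle replicate 3, and that of Ppan without YKL-05-099 replicate 2, 3 or 4 or vehicle replicate 3 or 4. That of Noc2l ended without YKL-05-099 replicate 1, 3 or 4 or vehicle replicate 1, 2 or 3, and that of Wdr74 without YKL-05-099 replicate 1, 2 or 4 or vehicle replicate 2, 3 or 4. Adjusted p in those fits was at most 0.105. The call of Noc2l ended with TPM scaling and with the replicate block too (adjusted p = 0.0721 and 0.0563), and those of Ppan and Wdr74 ended without the filter on low values (0.0515 and 0.0727). Ddx18, Nip7, Nle1, Noc3l and Nop16 were not called, with log2 fold changes from -0.20 to -0.11. Nle1 among them carries an E-box past its start. Rrp1b was the single large-subunit gene that rose (chromosome 17, 32036100 to 32062865), and its level was 10.1, 10.1, 11.9 and 12.2 FPKM in YKL-05-099 cells, 10.1 FPKM in culture, and 7.25, 6.91, 7.79 and 9.14 FPKM in vehicle cells. No vehicle value reached the lowest YKL-05-099 value (log2 fold change 0.46, SE 0.0908, limma adjusted p = 0.00292).

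Several members have a feature beyond their protein function, in that they carry snoRNA genes. In the GENCODE M21 annotation 8 of the 52 hold at least 1 annotated snoRNA gene on their own strand within their span (15.4%), against 2.17% of 11766 tested genes found there. They are Nop56, with 5 snoRNA genes, Nop58 with 4, Ncl, Gnl3 and Wdr43 with 3 each, Ppan and Tsr1 with 2 each, and Dkc1 with 1. Of these 8 hosts 7 fell and Nop56 was not called, beside 29 of all 52 members that fell. The share that fell among all tested hosts was not counted, so no link between hosting and the fall can be read from this. Exons of 21 members overlap exons of a gene on the opposite strand, 14 of the 32 called members among them, for example Bop1 with Mroh1 and Bysl with Ccnd3. Ccnd3 reached 138 FPKM, where Bysl was at most 8.61 FPKM in any library. Lgals8, which overlaps Heatr1, reached 38.9 FPKM, where Heatr1 was at most 5.78 FPKM. Idh3b, which overlaps Nop56, reached 88.4 FPKM, and Spns2, which overlaps Mybbp1a, 80.2 FPKM. The share of all tested genes with such an overlap was not counted. The kit marks strand, but whether the authors' counting used it was not stated in the labels, so reads of such pairs may not be separated.

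A wider list of 95 further ribosome biogenesis genes, of which 93 were tested, had 30 that fell and 11 that rose (32.3% and 11.8%, beside 15.1% and 28.0% of all genes tested), with a median log2 fold change of -0.08. The 3 with the smallest p among those that fell were Nmd3, the adapter that exports the large subunit, Mphosph10, a partner of Imp3 and Imp4, and Utp18. Nmd3 averaged 20.7 ± 1.07 FPKM in YKL-05-099 cells and 30.6 ± 1.5 FPKM in vehicle cells, Mphosph10 averaged 4.74 ± 0.222 and 7.29 ± 0.0794 FPKM, and Utp18 10.7 ± 0.277 and 14.5 ± 0.656 FPKM, in the same order. Their limma adjusted p were 6.29e-05, 8.19e-05 and 0.000211. Among those that rose, Rbm28 averaged 32.6 ± 1.19 FPKM in YKL-05-099 cells and 26.7 ± 0.964 FPKM in vehicle cells, Ddx47 44.2 ± 0.727 and 37.8 ± 1.94 FPKM, and Ngdn 21.7 ± 0.679 and 18.4 ± 0.911 FPKM, with adjusted p of 0.001, 0.00362 and 0.0045.

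Large-subunit genes of this list fell in 19 of 43 cases (44.2%) and rose in 4 (9.30%). Small-subunit genes fell in 10 of 39 (25.6%) and rose in 3 (7.69%). Of the 9 further RNA polymerase I genes 4 rose (44.4%) and 1 fell (11.1%), with a median of 0.11. Among all genes tested 15.1% fell and 28.0% rose. The RNA polymerase I genes that rose, named after their values were seen, included Ttf1, a terminator of RNA polymerase I (log2 fold change 0.38, limma adjusted p = 0.00463). The others were Taf1c and Taf1a, which encode subunits of its promoter selectivity factor (0.28 and 0.35, adjusted p = 0.00636 and 0.011), and the subunit gene Znrd1 (0.22, adjusted p = 0.0489). Cd3eap, a subunit gene too, fell (-0.21, adjusted p = 0.0297). The count of 11 that rose was 7 with median-of-ratios or quantile scaling, and 7 without YKL-05-099 replicate 2 or without replicate 3. The count of 30 that fell was 38 with median-of-ratios, 44 with quantile and 26 with TPM scaling.

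The MYC network, which acts on E-boxes, was measured in the same libraries. MYC and MYCN activate transcription with their partner MAX, while MNT and the MXD proteins bind MAX and repress. Myc itself had 175.9, 180.2, 152.9 and 89.5 FPKM in YKL-05-099 cells, 79.1 FPKM in culture, and 171.2, 179.8, 174.7 and 195.9 FPKM in vehicle cells. YKL-05-099 replicates 1 and 2 lay within the vehicle values, replicate 3 was below the lowest of them, and replicate 4 stood far below all others of the mouse libraries. Myc was not called (log2 fold change -0.32, SE 0.188, limma adjusted p = 0.197), and without YKL-05-099 replicate 4 its log2 fold change was -0.09 (adjusted p = 0.338). The median offset of the 52 members in that replicate was -0.16 log2 units, in a range of -0.23 to -0.15 over the 4 YKL-05-099 libraries. A relation between Myc and the members across libraries was not tested.

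Mycn fell, with 3.05, 2.81, 3.11 and 2.86 FPKM in YKL-05-099 cells, 4.58 FPKM in culture, and 5.58, 6.06, 8.76 and 6.01 FPKM in vehicle cells (log2 fold change -0.92, SE 0.115, limma adjusted p = 0.000241). Mnt was higher in every treated library, with 39.7, 36.5, 38.2 and 32.4 FPKM in YKL-05-099 cells, 21.1 FPKM in culture, and 16.1, 17.2, 17.3 and 17.4 FPKM in vehicle cells (log2 fold change 1.06, SE 0.0634, limma adjusted p = 4.33e-06). Mxd3 averaged 8.296 ± 1.41 FPKM in YKL-05-099 cells and 3.28 ± 0.492 FPKM in vehicle cells, and Mxd1 averaged 6.01 ± 0.428 FPKM and 3.08 ± 0.436 FPKM, in the same order. Both rose without overlap between the groups (limma adjusted p = 0.000107 and 0.000121). Mxi1 rose less (log2 fold change 0.42, adjusted p = 0.0202), a call that ended without YKL-05-099 replicate 1 or 3 (adjusted p = 0.0514 and 0.0553) and without the filter on low values (adjusted p = 0.0700). Max and Mxd4 were not called, and Mycl did not pass the filter on low values. Whether these changes bear on the ribosome biogenesis genes was not tested.

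**Figure D4:**
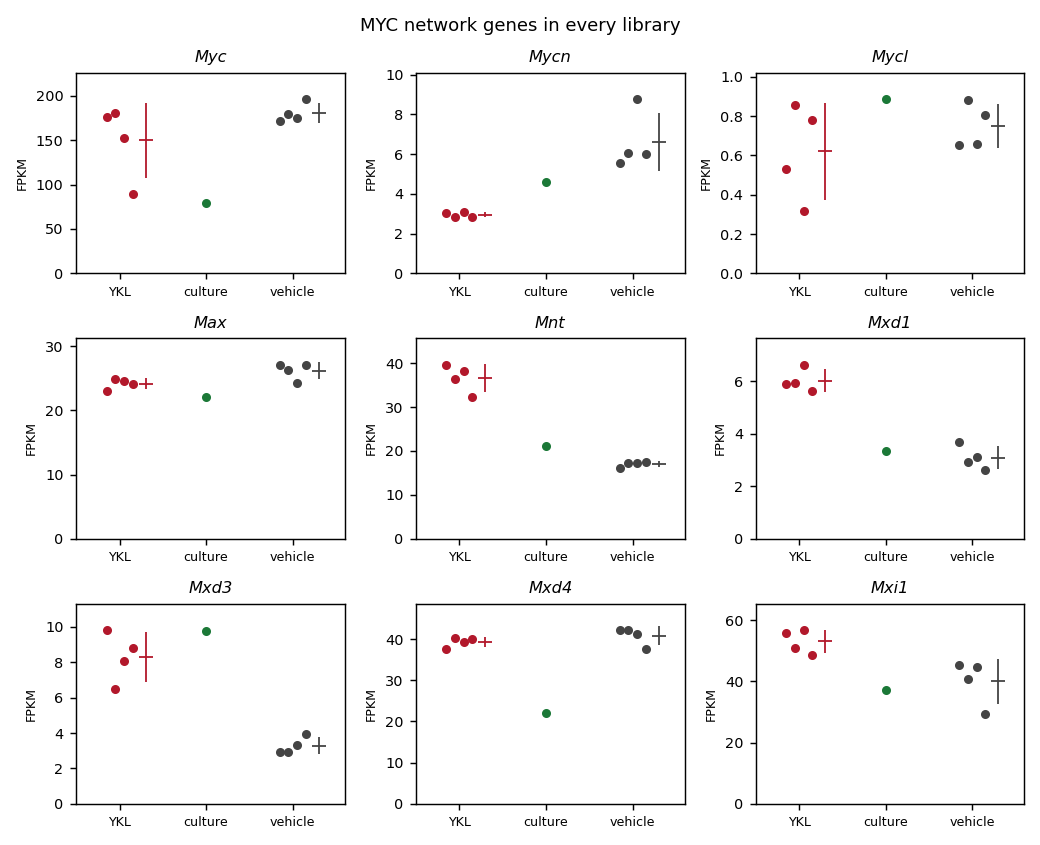
FPKM of 9 MYC network genes in 4 YKL-05-099 libraries (red), the cultured library (green) and 4 vehicle libraries (gray), with the mean ± SD of each mouse group. Axes start at 0, and Mnt, Mxd1, Mxd3 and Mxi1 lie higher in all YKL-05-099 libraries than in any vehicle library, Mycn lies lower, and Myc overlaps.

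The second comparison set the cultured library against the vehicle libraries. With 1 cultured library there is no test. Genes were called apart here if culture fell beyond all 4 vehicle values and differed from their mean by 1 log2 unit or more on log2(FPKM + 1). By this rule 2 members, Rrs1 and Rrp12, were apart and lower in culture and none was higher, against 10.8% lower and 9.88% higher among 12296 genes entered. The median difference of the members was -0.08, beside 0.03 over all genes entered. Smaller shifts ran both ways, since the cultured value was above the vehicle range for 23 members (44.6% of all genes), below it for 26 (40.2%) and within it for Dkc1, Nop58 and Ncl. At 0.5 log2 units in place of 1, 4 members were higher and 6 lower, against 22.9% higher and 22.1% lower among all genes entered.

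The members highest in culture relative to vehicle were Nop56, Tcof1, Npm1, Noc2l, Tsr1 and Polr1c, with log2 differences from 0.61 to 0.39. Nop56 had 35.5, 40.0, 40.3 and 48.4 FPKM in YKL-05-099 cells, 61.5 FPKM in culture, and 41.6, 33.8, 40.4 and 44.6 FPKM in vehicle cells. Noc2l had 18.3, 20.4, 19.5 and 19.2 FPKM in YKL-05-099 cells, 31.1 FPKM in culture, and 21.2, 21.6, 21.3 and 21.3 FPKM in vehicle cells. In both genes the cultured value was the highest of the 9. Npm1 in culture was 148% of its vehicle mean and Tsr1 139%.

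At the other end were Rrs1 (log2 difference -1.13), Rrp12 (-1.12), Nop14 (-0.97) and Ubtf (-0.80). Rrs1 in culture was at 44.6% of the vehicle mean, Rrp12 at 38.4% and Ubtf at 56.5%. Nop14, whose yeast counterpart is part of the small-subunit assembly, had 43.4, 39.0, 40.7 and 42.2 FPKM in YKL-05-099 cells, 19.2 FPKM in culture, and 42.6, 35.9, 40.9 and 35.4 FPKM in vehicle cells. The mouse groups overlapped and culture stood far below both.

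By role, the median difference between culture and vehicle was 0.18 for the large-subunit group, 0.11 for the nucleolar proteins of several roles, -0.03 for the snoRNP proteins, -0.16 for the small-subunit group and -0.29 for RNA polymerase I and its factors. Against the YKL-05-099 libraries, which share the cultured library with this comparison, the median was 0.15 for the 52 members, beside -0.02 over all genes entered. Nop14 alone was apart there, lower in culture (-1.07, against 11.3% of all genes), and none was apart and higher (8.42% of all genes). The cultured value lay above the YKL-05-099 range for 29 members (42.0% of all genes) and below it for 18 (45.2%). The cultured library also had lower leukocyte and macrophage sums than the vehicle libraries (11.7 and 12.0 FPKM), and growth conditions and sorting cannot be told apart with 1 library.

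**Figure D5:**
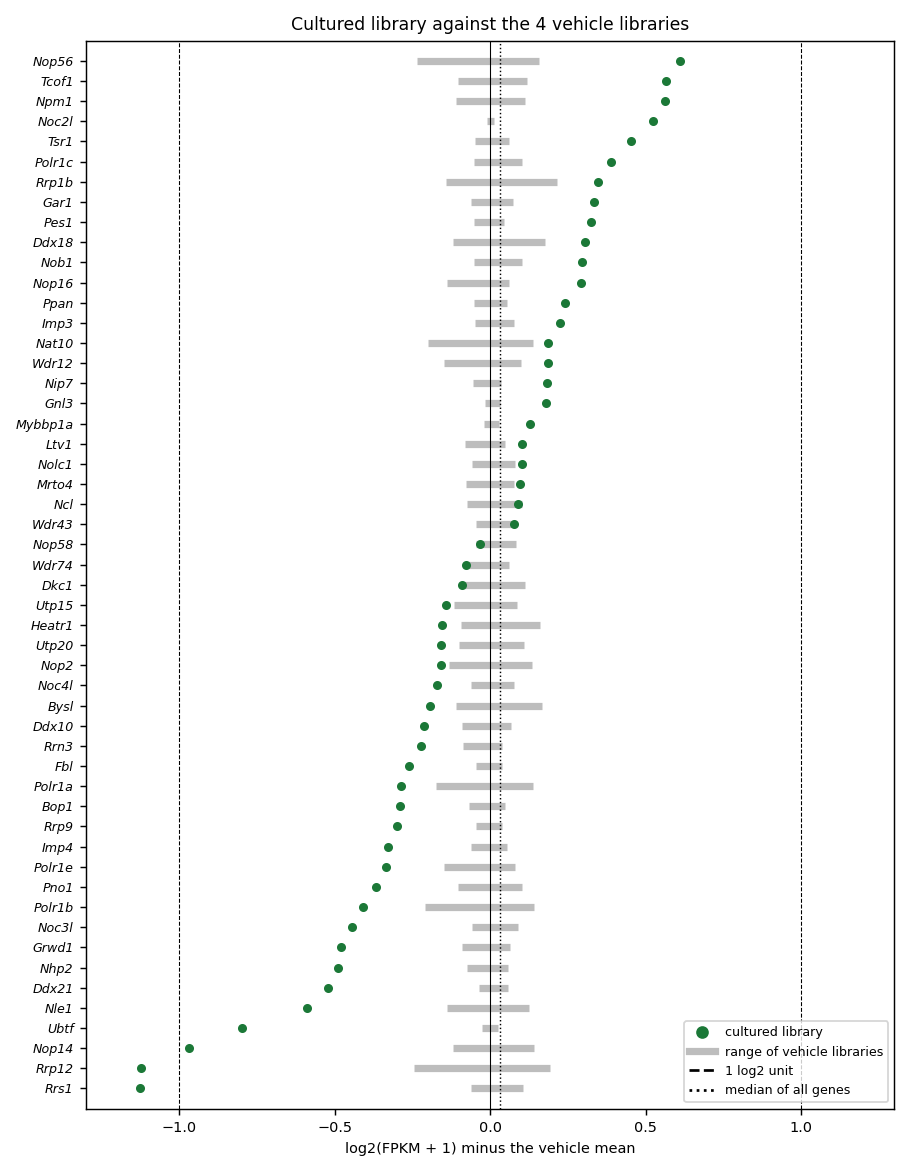
Difference of the cultured library from the mean of the 4 vehicle libraries (green points, log2(FPKM + 1)) for the 52 members in order, with the range of the vehicle libraries as gray bars and dashed lines at 1 log2 unit. Rrs1 and Rrp12 lie beyond the left dashed line, and 49 points lie outside their gray bar.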

How the data were processed

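The authors deposited 1 table of FPKM values, with an estimation status for each, per the file headers. The tool bcl2fastq 2.19 and the build GRCm38 are named in the submitters' processing notes, and aligner and counter were not given in the sources used here. Of 48302 rows, 65 with a repeated identifier (the longest locus was kept) and 7 genes with a failed estimate, listed at 0, were left out. Sums ran from 453169 to 482851 FPKM per library. The lowest values of 4263 single-transcript genes put the depth at roughly 23000000 to 37000000 fragments per library, but only 14.1 to 18.7% of them were whole reads within 0.05, so counts were not recovered and no counting interval is given. Locus starts were raised by 1 to count from 1.

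Treatment was tested with limma 3.58.1 (R 4.3.3, mean-variance trend) on log2(FPKM + 1), without rescaling, for genes that reached an FPKM of 1 in 4 or more of the 8 mouse libraries, with Benjamini-Hochberg adjustment over all of them. This scale understates changes of low genes. All 52 members passed the filter. The function was checked on simulated data. Members, lists and tests were chosen with earlier results of these data known. Values in every library are given for the 16 members with the smallest p, all that rose, the 6 highest and 4 lowest in culture, and the highest of each role. Of the wider list the 3 with the smallest p in each direction are named. Alternatives were pseudocounts of 0.1 and 0.5, other filters and scalings, all 9 libraries, a replicate block, a leukocyte covariate and leaving out each library. Promoter sequences are from RefSeq (GRCm38.p6). No 2 libraries were identical.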

Additional observations from a re-analysis of the deposited data

Results flagged for a closer look

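In 6 of 134 groups of 4 libraries examined, the most extreme library stood apart from the other 3 by more than 0.829 of the whole range. Chance alone puts about 1 in 20 groups there. Polr1b was 8.49 FPKM in YKL-05-099 replicate 1, against 10.8 to 11.1 FPKM in the other 3. Wdr74 was 26.7 FPKM in YKL-05-099 replicate 3, against 22.8 to 23.4 FPKM. In vehicle cells Rrn3 was 22.7 FPKM in replicate 2, against 24.7 to 24.9 FPKM, and Nop16 was 12.0 FPKM in replicate 1, against 13.7 to 14.0 FPKM. Mycn was 8.76 FPKM in vehicle replicate 3, against 5.58 to 6.06 FPKM, and Mnt was 16.1 FPKM in vehicle replicate 1, against 17.2 to 17.4 FPKM.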

How the results depend on the processing

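Of the 32 called members, 22 passed the threshold in all 8 fits that left out 1 library. Over those fits 21 to 27 members were lower and 2 to 3 higher, with a median log2 fold change of -0.19 to -0.15. Over all genes tested 1436 to 2060 were lower and 2773 to 3473 higher, and in the wider list 22 to 29 and 7 to 14. In culture 0 members were apart and higher and 2 to 3 lower. The median of the members was -0.22 with median-of-ratios and -0.23 with quantile scaling. The wider list then had 7 higher genes under each, and 38 and 44 lower ones. With the leukocyte covariate 5 members were lower and 0 higher, 321 genes lower and 581 higher over all tested, and 5 lower and 0 higher in the wider list. At 0.5 log2 units 4 members were apart and higher in culture and 6 lower, against 22.9 and 22.1% of all genes. Imp4, Nip7, Nle1, Nob1, Noc3l and Rrp9 were called lower with median-of-ratios and with quantile scaling, Npm1 with the first alone and Polr1e and Utp20 with the second alone, and Max with both. The replicate numbers did not pair the libraries (correlations of same-numbered deviations -0.018, 0.133, -0.047 and 0.172). With a replicate block 28 members were lower and 3 higher, and 1682 and 3148 genes over all tested, and Ddx18 was called (adjusted p = 0.0396) where Noc2l and Ddx10 were not.

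Values that changed sign, none of them called, were those of Polr1b (-0.0145 with median-of-ratios scaling, -0.0486 with quantile scaling, -0.0376 with the covariate, -0.0013 without YKL-05-099 replicate 4, -0.0383 without vehicle replicate 2; 0.1139 at most when 1 library was left out) and Nop56 (-0.018, -0.0072, -0.2153, -0.0494 and -0.0472 in the same order; at most 0.0965). The others were Wdr12 (0.0009 without vehicle replicate 1, and -0.0808 without replicate 3), Imp3 (-0.0091 with median-of-ratios scaling), Utp15 (-0.0275 with quantile scaling, -0.0259 with the covariate), and Myc and Mxd4 (0.0829 and 0.0334 with the covariate). The causes were not tested. Depth could only be estimated from FPKM, and a p that misses the threshold does not show that a member did not change.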
